A study of Mus musculus with 6 samples.

Results

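Collagen genes were followed in single-nucleus RNA sequencing of mouse liver, as every listed gene whose symbol reads Col, a number, a and a number. Of 32285 listed genes 44 met this rule: 11 encode fibrillar collagens, 6 encode the type IV chains of basement membranes and 27 encode other types. The livers came from 6 male DIAMOND mice, a 129A1/SvIm and C57BL/6J cross in which a Western diet (WD, high-fat diet with sugar water) is used to bring about fatty liver disease and then liver tumors. In each group 2 mice were sampled: Ctrl mice ate chow for 40 weeks, Pre-T mice ate WD for 40 weeks and were taken before tumors, and Post-T mice ate WD for 48 weeks and were taken after tumors had developed. All diets began at 2 months of age, so the Post-T mice were also the oldest, and diet length, age and tumor stage cannot be told apart in that group. The sample titles of both Post-T mice name tumor and the tissue label names liver, so how much tumor each nuclear preparation held is not known here.

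Collagens are extracellular proteins in which polypeptide chains wind into a helix. Fibrillar types I, III and V build the fibers of scar tissue, which in injured liver are laid down mainly by activated hepatic stellate cells and portal fibroblasts. Type IV chains assemble into the sheet-like networks of basement membranes under bile ducts, mesothelium and most blood vessels, whereas the healthy liver sinusoid is lined by a fenestrated endothelium that lacks a continuous basement membrane. The remaining types decorate fibrils, form short networks or beaded filaments, span the cell membrane, or, like the multiplexins, carry releasable domains such as endostatin.

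The 6 type IV genes lie in head-to-head pairs, and the sequence between or across their start sites is shown because both chains of the first pair moved together in the endothelial nuclei described below. In GRCm38 (mm10) with the GENCODE gene models, the first exons of Col4a1 (minus strand) and Col4a2 (plus strand) overlap by 22 bases at chr8:11312805-11312826, and 71 bases separate Col4a4 (minus strand) from Col4a3 (plus strand) at chr1:82586850-82586920. Both are printed from RefSeq sequence on the plus strand, and the capitals mark GGGCGG, the GC box letters.
Col4a1 and Col4a2, exonic overlap: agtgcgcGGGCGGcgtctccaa
Col4a4 and Col4a3, gap between genes: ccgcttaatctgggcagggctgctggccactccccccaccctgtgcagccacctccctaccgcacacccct
The third pair, Col4a6 (minus strand) and Col4a5 (plus strand), is 1308 bases apart at chrX:141474077-141475384. GGGCGG was searched on both strands in the 250 bases before the RefSeq starts and was in 22 of 38 collagen windows (35 of the 44 genes had a window), against 32.7% of all 32851 windows. CCAAT was in 13 of the 38 and in 33.8% of all windows, and TATAAA was in 5 of the 38 and in 12.4% of all windows. A match of letters is a description and not a known binding site.

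The 6 libraries held 41882 barcodes with at least 500 UMIs (unique molecular identifiers, each counted as 1 captured transcript), of which 39012 were kept as nuclei with 19415498 to 24847537 UMIs per mouse and a median of 1623 to 2805 UMIs per nucleus. Nuclei were clustered without the collagen genes, and clusters were named from markers that hold no collagen gene, so a class written here as fibroblasts, endothelial cells or hepatocytes stands for fibroblast-like, endothelial-like or hepatocyte-like nuclei. Every one of the 10 hepatocyte and 11 endothelial markers and at least 10 of the 11 fibroblast markers had a UMI in their own class in each mouse. All 10 hepatocyte markers also had a UMI in the fibroblasts and in the endothelial cells of each mouse. Clusters were named from these same markers, so their detection cannot test the class names. Class sizes differed between mice, and the Post-T libraries stood apart: fibroblast nuclei numbered 847 and 1098 in Ctrl, 453 and 538 in Pre-T, and 207 and 56 in Post-T, and endothelial nuclei numbered 905 and 1027 in Ctrl, 485 and 951 in Pre-T, and 741 and 1584 in Post-T. Cholangiocytes numbered 190 and 149 in Ctrl, 118 and 124 in Pre-T, and 103 and 1 in Post-T, and mesothelial cells numbered 190 and 171 in Ctrl, 25 and 2 in Pre-T, and 4 and 0 in Post-T. In Post-T 1, 825 nuclei fell into no named class. Any 2 libraries shared 7 to 21 barcodes, at most 0.285% of the smaller library.

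In sum the kept nuclei held 156096 collagen UMIs, and 39 genes reached 30 UMIs. The genes under 30 UMIs were Col2a1 with 3, Col9a2 with 3, Col9a1 with 14, Col6a4 with 20 and Col11a1 with 25 UMIs, and they are not described further. UMIs of 3′ tags are not scaled by gene length, so levels are compared between mice and classes but not between genes.

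Among the fibrillar genes, fibroblasts held 90.4% of Col24a1 UMIs, 88.4% of Col5a1 UMIs, 70.4% of Col3a1 UMIs and 65.9% of Col1a2 UMIs. By contrast, hepatocytes held 79.4% of Col5a3 UMIs and 66.7% of Col27a1 UMIs. The paired chains Col4a1 and Col4a2 were shared between endothelial cells (35.8% and 42.5% of UMIs) and fibroblasts (32.2% and 29.7%). Mesothelial cells, although only 392 nuclei, held 46.4% of Col4a4 UMIs and 45.2% of Col4a6 UMIs. Among the other types, fibroblasts held 79.9% of Col14a1 UMIs, endothelial cells held 77.3% of Col13a1 UMIs and hepatocytes held 78.5% of Col18a1 UMIs. Each class contributes by its number of nuclei and by its level, and the hepatocyte class alone had 20176 of the 39012 nuclei.

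**Figure D1:**
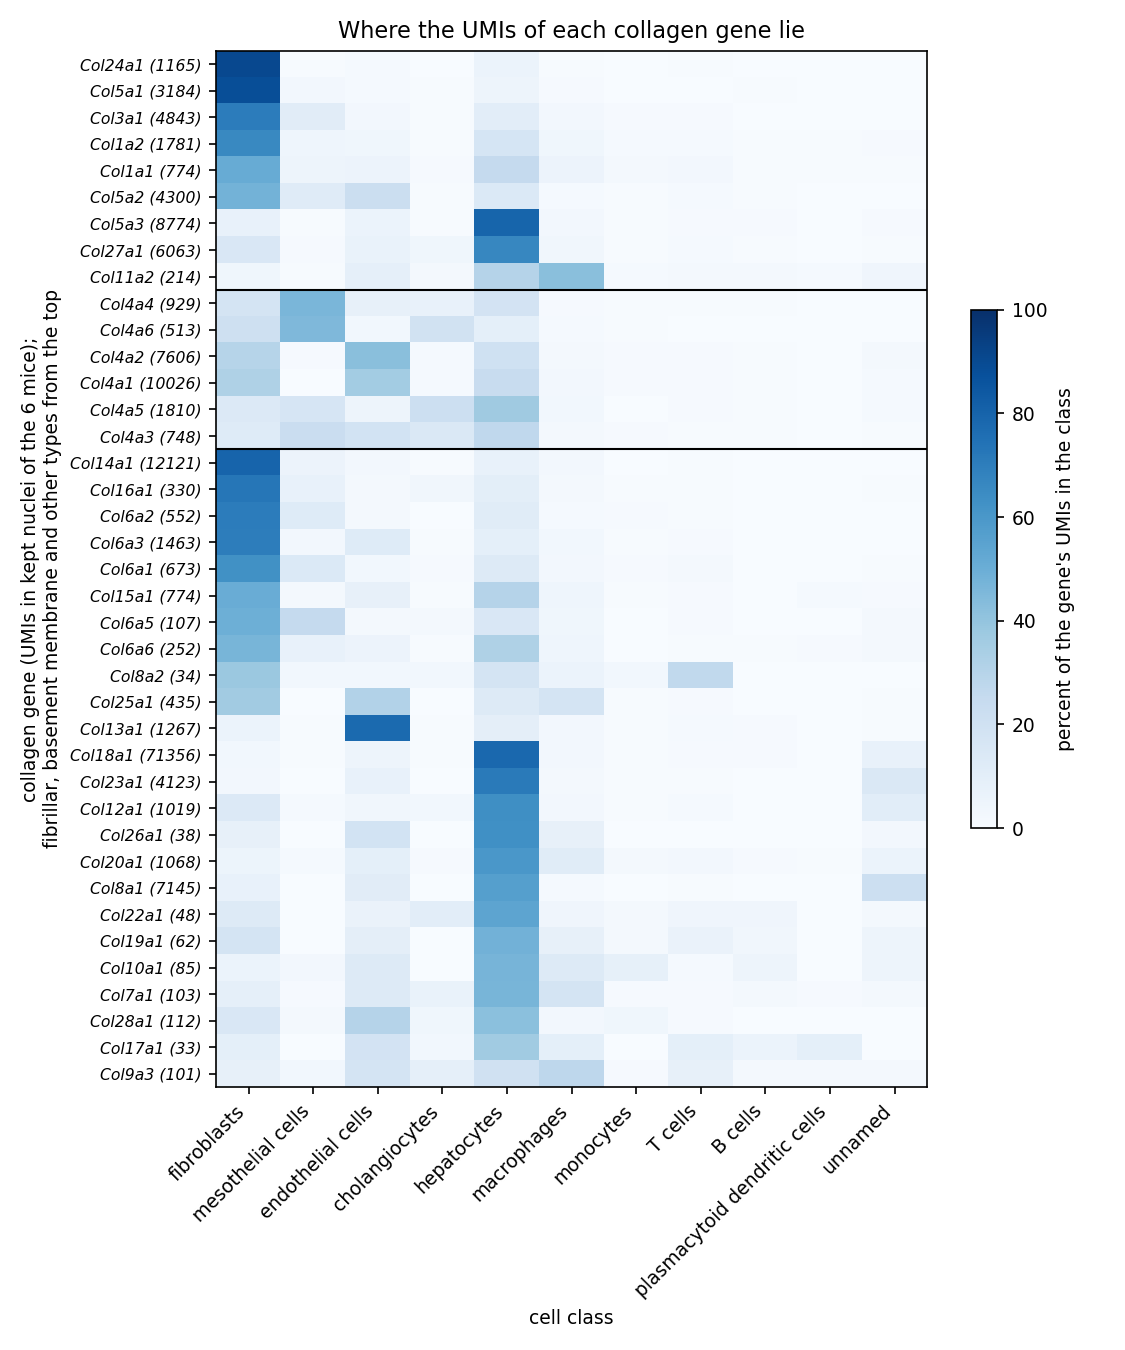
Heat map of the percent of each collagen gene's UMIs (rows, 39 genes with 30 or more UMIs, grouped as fibrillar, basement membrane and other from the top, UMI totals in brackets) found in each cell class (columns), summed over the 6 mice. Most fibrillar rows are darkest in fibroblasts, Col5a3 and Col27a1 are darkest in hepatocytes, and Col4a1 and Col4a2 are split between endothelial cells and fibroblasts.

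The source of the basement membrane collagens differed between mice. Of the basement membrane collagen UMIs of each mouse, endothelial cells held 15.1 and 17.1 percent in Ctrl, 17.1 and 22.7 in Pre-T, and 49.7 and 78.2 in Post-T. Fibroblasts held 46.4 and 29.9 percent in Ctrl, 33.8 and 35.8 in Pre-T, and 14.6 and 3.38 in Post-T. The endothelial share was thus highest in both Post-T mice, and the fibroblast share was lowest in them. Fibroblasts held 40.1% and hepatocytes held 41.4% of fibrillar collagen UMIs over all mice. Of the 12899 fibrillar UMIs in hepatocytes, Col5a3 gave 6967 and Col27a1 gave 4044.

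Levels are given as CPM, the UMIs of a gene when the UMIs of the class in that mouse are scaled to sum to 1000000. In endothelial nuclei the summed basement membrane collagens reached 296 and 207 CPM in Ctrl, 403 and 269 in Pre-T, and 1406 and 839 in Post-T. Both Post-T values lay above all 4 others. The summed fibrillar collagens of the same nuclei reached 259 and 189.8 CPM in Ctrl, 164 and 225 in Pre-T, and 93.5 and 38.7 in Post-T, with both Post-T values below all others. In fibroblast nuclei the summed fibrillar collagens reached 1215 and 958 CPM in Ctrl, 1685 and 1475 in Pre-T, and 1779 and 837 in Post-T and the basement membrane collagens 962 and 272 CPM in Ctrl, 737 and 626 in Pre-T, and 885 and 873 in Post-T. In the fibroblasts Pre-T lay above Ctrl for the fibrillar sum, Post-T 2 lay below every other mouse, and the groups overlapped for the basement membrane sum, in which Ctrl 2 was the lowest. In all kept nuclei the fibrillar sum was 313 and 331 CPM in Ctrl, 233 and 298 in Pre-T, and 111 and 41.1 in Post-T, lowest in both Post-T mice. Of the 31126 UMIs in that sum, Col5a3 gave 8774 and Col27a1 gave 6063, both mostly from hepatocytes. Col1a1 gave 774, Col1a2 gave 1781 and Col3a1 gave 4843, so the sum does not stand for types I and III alone. The other types summed in hepatocytes to 874 and 829 CPM in Ctrl, 863 and 610.3 in Pre-T, and 779 and 696 in Post-T, and in fibroblasts to 1649.9 and 1208 CPM in Ctrl, 2081 and 1939 in Pre-T, and 1594 and 1032 in Post-T. In hepatocytes both Post-T values lay below both Ctrl values and Pre-T overlapped both groups. In fibroblasts both Pre-T values lay above all others, and Ctrl and Post-T overlapped. In the sums over all kept nuclei fewer cells of a type and less RNA per cell cannot be told apart.

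**Figure D2:**
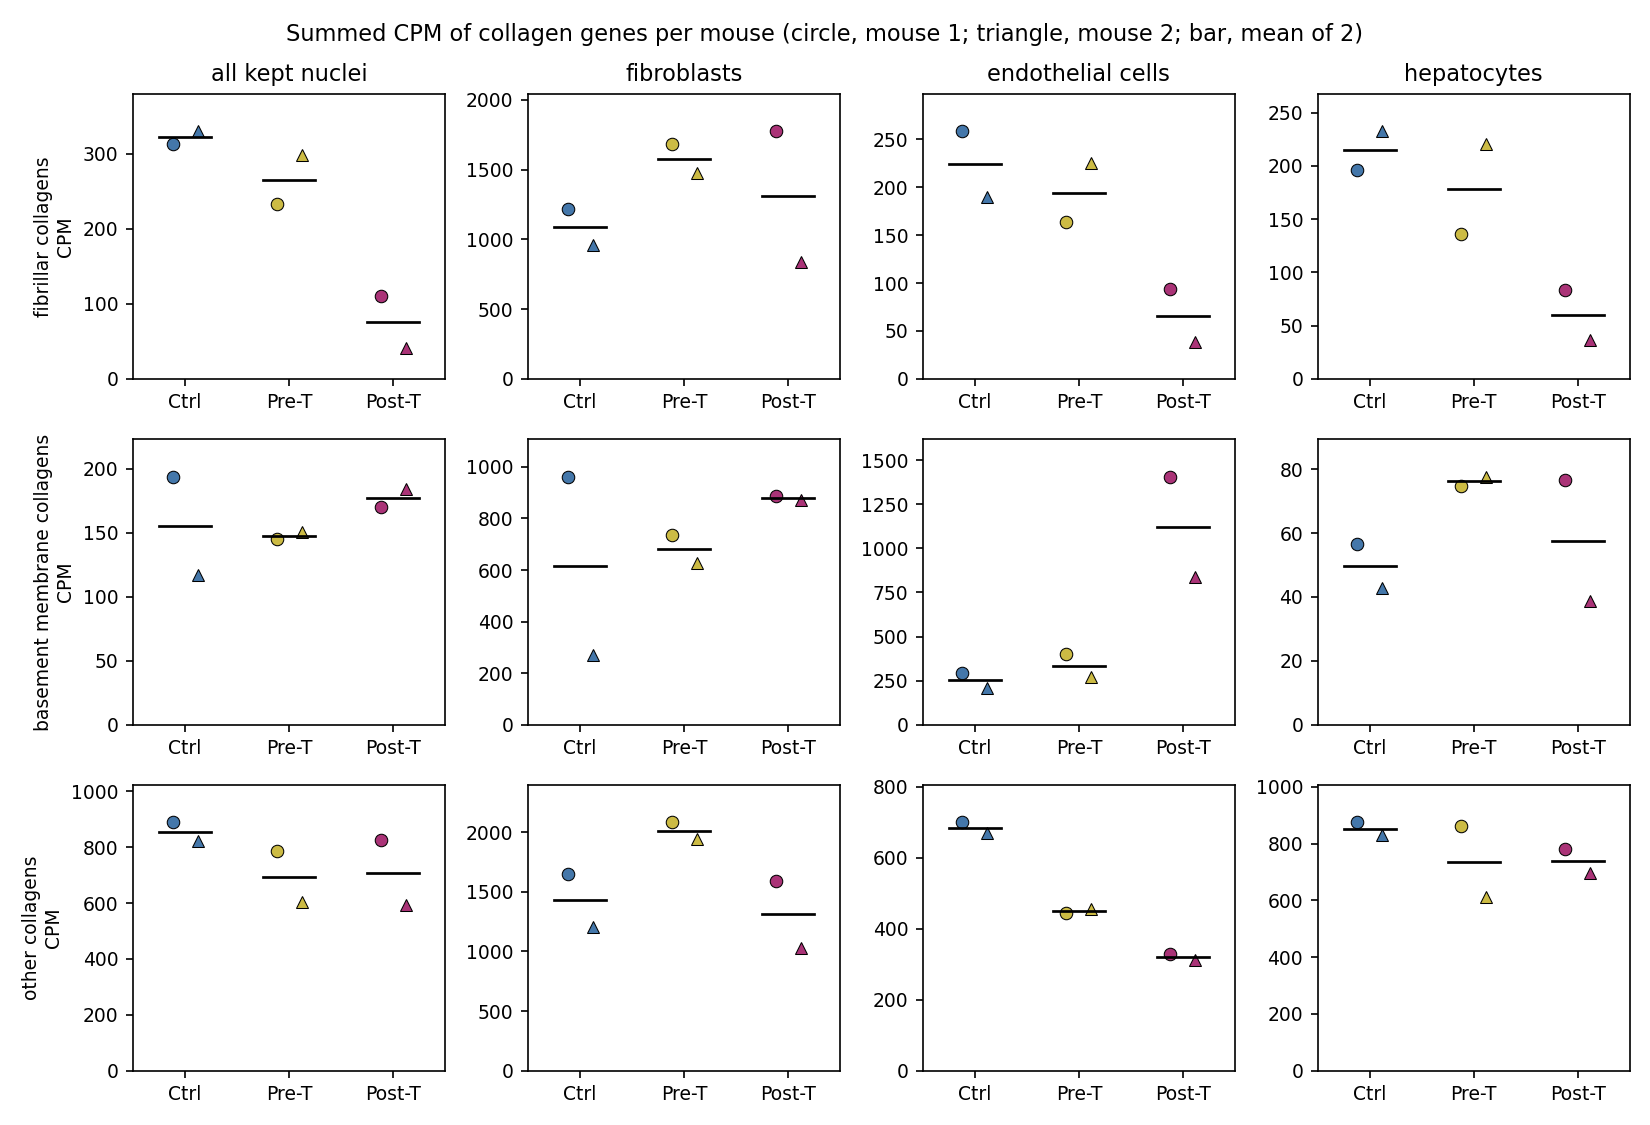
Summed CPM of fibrillar, basement membrane and other collagen genes (rows) in all kept nuclei, fibroblasts, endothelial cells and hepatocytes (columns), with 1 symbol per mouse (circle, mouse 1; triangle, mouse 2) and a bar at the mean of 2. In endothelial cells the Post-T mice, at 1406 and 839 CPM, lie above all others for basement membrane collagens and below all others for fibrillar collagens.

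Counts summed per mouse were compared between groups with the quasi-likelihood test of edgeR, fitted over all genes of a population, with Benjamini-Hochberg adjustment and a threshold of 0.05. Tested values are printed below as TMM-scaled CPM, in which library sizes are multiplied by edgeR's TMM factors, and fold changes are log2 with their standard error (SE). Of 42 collagen genes tested in all kept nuclei, 0 passed for Pre-T against Ctrl, where 0% of all genes passed, 11 had an unadjusted p under 0.05 and DESeq2 called 5, beside 9.72% of all genes. For Post-T against Ctrl 4 passed, all lower, where 2.22% of all genes passed (0.661% higher and 1.56% lower). For Post-T against Pre-T 0 passed, where 0% of all genes passed, 13 had an unadjusted p under 0.05 and DESeq2 called 7, beside 13.1% of all genes. Of 41 tested in fibroblasts, 4 passed for Pre-T against Ctrl (2 higher and 2 lower, beside 3.93% of all genes, 1.72% higher and 2.21% lower), 3 for Post-T against Ctrl (2 higher and 1 lower, beside 3.1% of all genes, 0.978% higher and 2.13% lower) and 0 for Post-T against Pre-T (beside 0.0421% of all genes, 0.0158% higher and 0.0263% lower; 7 had an unadjusted p under 0.05, and DESeq2 called 0, beside 0.531% of all genes).

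Of 37 tested in endothelial cells, 1 passed for Pre-T against Ctrl (lower, beside 2.32% of all genes, 1.12% higher and 1.2% lower), 6 for Post-T against Ctrl (3 higher and 3 lower, beside 8.35% of all genes, 3.28% higher and 5.07% lower) and 4 for Post-T against Pre-T (3 higher and 1 lower, beside 5.11% of all genes, 2.11% higher and 3% lower). Of 42 tested in hepatocytes, 0 passed in any comparison, where 0.00887% of all genes passed in Pre-T against Ctrl (all higher), 1.26% in Post-T against Ctrl (0.386% higher and 0.869% lower) and 0% between the WD groups. Among these hepatocyte collagens 7, 12 and 4 had an unadjusted p under 0.05, and DESeq2 called 3, 6 and 1 in the same order, beside 4.47%, 8.59% and 6.12% of all genes. The median log2 fold change over the tested collagens was -1.34 in all kept nuclei, -0.17 in fibroblasts, -0.84 in endothelial cells and -0.99 in hepatocytes for Post-T against Ctrl, beside 0.00, -0.24, -0.07 and -0.11 over all genes tested. For Pre-T against Ctrl it was -0.57, 0.43, -0.02 and -0.65 in the same order, beside -0.01, 0.00, 0.02 and -0.01 over all genes.

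**Figure D3:**
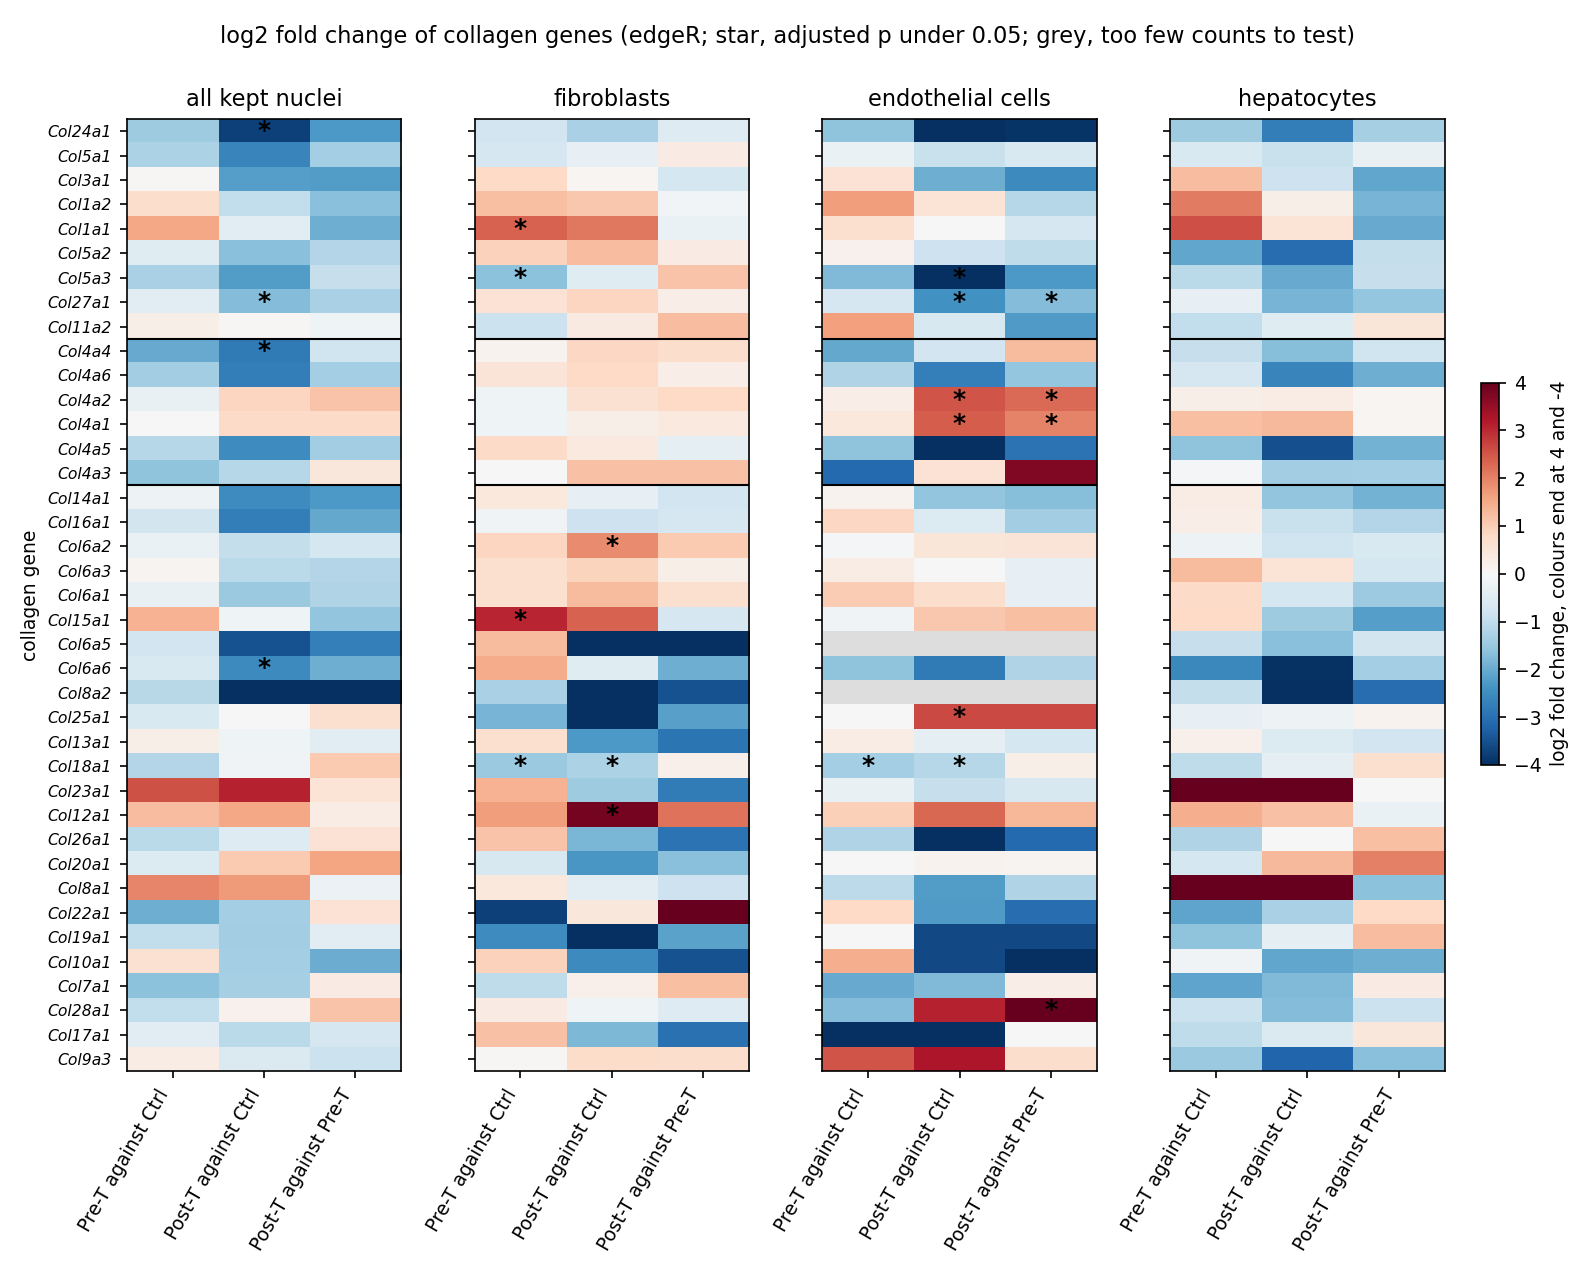
Log2 fold change (colour, ending at 4 and -4) of each collagen gene (rows) in 3 comparisons (columns) in all kept nuclei, fibroblasts, endothelial cells and hepatocytes (panels); a star marks an adjusted p under 0.05 in edgeR and grey marks too few counts. Stars for higher levels are at Col4a1 and Col4a2 in both Post-T comparisons of endothelial cells, and no star is in the hepatocyte panel.

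In fibroblasts Col1a1, the α1 chain of type I collagen, rose in Pre-T and stood at 24.8 and 5.28 TMM-scaled CPM in Ctrl, 79.3 and 69.5 in Pre-T, and 62.9 and 60.8 in Post-T. Every WD mouse lay above both Ctrl mice. The log2 fold change of Pre-T against Ctrl was 2.36 ± 0.50, adjusted p = 0.0255 (edgeR), and that of Post-T against Ctrl was 2.11 ± 0.58, adjusted p = 0.087 (edgeR), which did not pass. The Col1a1 values rest on 52 and 16 UMIs in Ctrl, 146 and 135 in Pre-T, and 38 and 8 in Post-T. The Pre-T call was lost without Ctrl 2 (1.61, adjusted p = 0.0522), without Post-T 1 (2.37, adjusted p = 0.059) or without Post-T 2 (2.37, adjusted p = 0.0584). A Col1a1 UMI was seen in 6.38% of fibroblast nuclei (median depth 2391 UMIs) and in 1.19% of T cell nuclei (median depth 1388 UMIs), a class taken not to make it.

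Col1a2, the partner chain of type I, stood in fibroblasts at 96.5 and 56.1 TMM-scaled CPM in Ctrl, 183 and 165 in Pre-T, and 229 and 53.2 in Post-T, and the test of Pre-T against Ctrl gave 1.20 ± 0.43, adjusted p = 0.172 (edgeR). Col3a1, the type III chain, stood at 387 and 168 TMM-scaled CPM in Ctrl, 498 and 462 in Pre-T, and 429 and 114 in Post-T, with 0.79 ± 0.48, adjusted p = 0.455 (edgeR) for Pre-T against Ctrl. Pre-T lay above Ctrl for both genes without passing the test, and Post-T 2, with 56 fibroblast nuclei, lay below all other mice for Col3a1. Col5a1 and Col5a2, chains of type V collagen that nucleates fibrils, had log2 fold changes of -0.68 ± 0.25 and 0.92 ± 0.31 for Pre-T against Ctrl and of -0.34 ± 0.26 and 1.23 ± 0.32 for Post-T against Ctrl, and none of these 4 passed.

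The third type V chain, Col5a3, fell in Pre-T fibroblasts and stood there at 87.9 and 95.6 TMM-scaled CPM in Ctrl, 30.4 and 28.8 in Pre-T, and 74.5 and 45.6 in Post-T. The groups Ctrl and Pre-T did not overlap. Its log2 fold change was -1.63 ± 0.27, adjusted p = 0.00797 (edgeR), lost without Ctrl 1 (-1.68, adjusted p = 0.0886) or without Pre-T 2 (-1.55, adjusted p = 0.0506). In endothelial cells Col5a3 fell in Post-T against Ctrl by a log2 fold change of -4.08 ± 0.62, adjusted p = 0.00922 (edgeR), at 75.6 and 88.9 TMM-scaled CPM in Ctrl, 15.04 and 31.8 in Pre-T, and 9.66 and 1.87 in Post-T. The endothelial call was lost without Ctrl 1 (-4.17, adjusted p = 0.0514). Most Col5a3 UMIs were in hepatocytes, at 107 and 150.1 CPM in Ctrl, 70.4 and 86.1 in Pre-T, and 52.6 and 14.2 in Post-T. T cells held 39.4 and 40.1 CPM in Ctrl, 23.8 and 36.5 in Pre-T, and 5.99 and 3.66 in Post-T. Both Post-T mice were lowest in hepatocytes and in T cells, as in endothelial cells, whereas in fibroblasts both Pre-T mice were lowest. T cells are a class taken not to make the gene. Their values in Post-T 1 and Post-T 2 lay below 17.96 and 10.97 CPM, the levels that 0 UMIs would allow there. The T cell values of Post-T thus rest on very few UMIs, and the part of RNA from other cells was not tested.

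Col27a1, a fibrillar chain best known from cartilage, fell in Post-T against Ctrl in all kept nuclei (log2 fold change -1.73 ± 0.23, adjusted p = 0.0357, edgeR) and in endothelial cells (-2.41 ± 0.37, adjusted p = 0.00898, edgeR), and against Pre-T in endothelial cells (-1.74 ± 0.37, adjusted p = 0.0398, edgeR). All kept nuclei held 69.0 and 54.1 TMM-scaled CPM in Ctrl, 41.6 and 50.01 in Pre-T, and 17.9 and 19.2 in Post-T, and endothelial cells 57.7 and 36.4 TMM-scaled CPM in Ctrl, 22.8 and 35.4 in Pre-T, and 9.66 and 8.22 in Post-T. Both Post-T mice were the lowest in each population. Hepatocytes held 66.8 and 55.4 CPM in Ctrl, 50.6 and 76.7 in Pre-T, and 15.2 and 18.4 in Post-T, where -1.85 ± 0.35, adjusted p = 0.0582 (edgeR) did not pass. Over all mice endothelial cells held 6.66% of Col27a1 UMIs and T cells, taken not to make the gene, held 1.24%. These classes held 13664466 and 3135020 UMIs of all genes. The part of hepatocyte RNA in the endothelial values was not tested. The endothelial call against Ctrl was lost without Ctrl 1 (-2.04, adjusted p = 0.0607), and that against Pre-T was lost without any 1 of the 6 mice (-2.01 to -1.38). The call in all kept nuclei was lost without either Ctrl or either Pre-T mouse (-1.90 to -1.55).

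Col24a1, a minor fibrillar chain, fell in all kept nuclei in Post-T against Ctrl and stood at 13.2 and 19.9 TMM-scaled CPM in Ctrl, 4.60 and 7.66 in Pre-T, and 1.72 and 0.722 in Post-T, with a log2 fold change of -3.73 ± 0.54, adjusted p = 0.0375 (edgeR). All WD mice lay below both Ctrl mice. Within fibroblasts, which held 90.4% of its UMIs, the log2 fold change was -1.31 ± 0.33, adjusted p = 0.0625 (edgeR), not past the threshold, and fibroblasts were themselves fewer in Post-T. The call in all kept nuclei was lost without either Ctrl mouse (-4.01, adjusted p = 0.215, and -3.41, adjusted p = 0.176) and without either Pre-T mouse (-3.76 for each, adjusted p = 0.0786 and 0.0783). Col11a2, a chain of type XI collagen, had 214 UMIs, 42.5% of them in macrophages, and passed no test.

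The fibroblast class was made of 3 clusters whose shares differed between groups, and the fibroblast calls were recomputed within a single cluster, an alternative chosen after seeing the data. The only one with 50 or more nuclei in every mouse (cluster 15, in which all 11 fibroblast markers and 5 of 7 smooth muscle markers were raised) made up 15.6 and 6.92 percent in Ctrl, 79.2 and 76.2 in Pre-T, and 90.8 and 94.6 in Post-T of fibroblast nuclei. Cluster 16, led by Ntm, made up 52.8 and 61.8 percent in Ctrl, 0.221 and 0.558 in Pre-T, and 0 and 0 in Post-T, and cluster 20, led by Clca3a1 and Lsamp, made up 31.6 and 31.2 percent in Ctrl, 20.5 and 23.2 in Pre-T, and 9.18 and 5.36 in Post-T. Fibroblasts of Ctrl mice were thus mostly in cluster 16, and those of WD mice were mostly in cluster 15.

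Within cluster 15, Col1a1 stood at 116 and 47.3 CPM in Ctrl, 125 and 103 in Pre-T, and 71.0 and 62.3 in Post-T, so Ctrl 1 and Pre-T overlapped. In cluster 16 it stood at 8.06 and 4.28 CPM in Ctrl, and in cluster 20 at 4.58 and 0.747 CPM in Ctrl, 15.6 and 6.99 in Pre-T, and 23.0 and 0 in Post-T. Col15a1 stood within cluster 15 at 101 and 35.5 CPM in Ctrl, 159 and 75.5 in Pre-T, and 82.8 and 0 in Post-T. Restricted to cluster 15, Pre-T against Ctrl gave for Col1a1 a log2 fold change of 0.46 (edgeR adjusted p = 0.674) and for Col15a1 0.72 (edgeR adjusted p = 0.553), and both calls were lost. Within the same cluster Col24a1, which had not passed in the whole class, was called higher in Pre-T (2.81, edgeR adjusted p = 0.000271) at 14.9 and 17.8 CPM in Ctrl, 98.6 and 116 in Pre-T, and 53.3 and 70.1 in Post-T. Col14a1 stood there at 719 and 491 CPM in Ctrl, 1585 and 1672 in Pre-T, and 937 and 623 in Post-T, with both Pre-T mice above all others. The smooth muscle markers summed to 647 and 409 CPM in Ctrl, 546 and 658 in Pre-T, and 471 and 974 in Post-T over the whole fibroblast class. They were highest in Post-T 2, and their part was not tested.

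**Figure D4:**
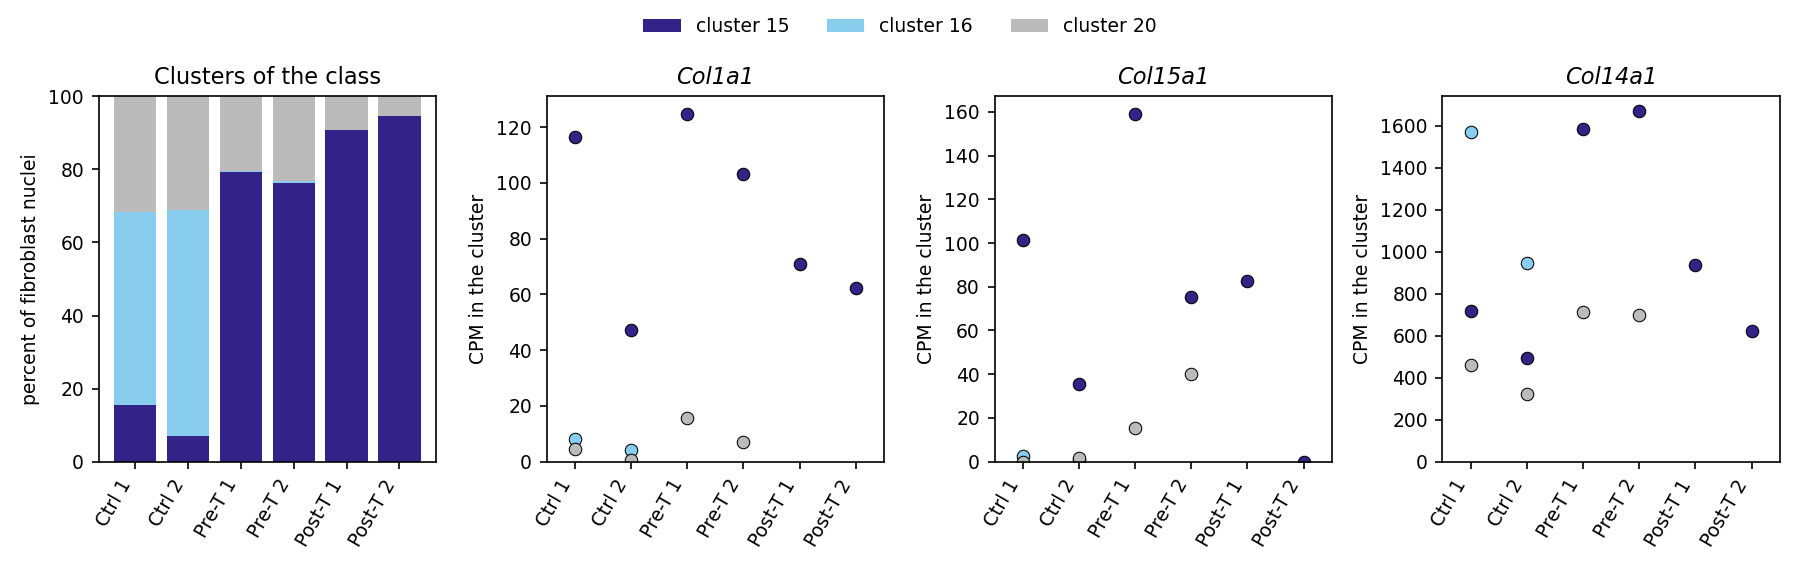
Left, percent of fibroblast nuclei in each of 3 clusters (stacked bars, to 100) for the 6 mice; right, CPM of Col1a1, Col15a1 and Col14a1 in each cluster and mouse (points, coloured by cluster, shown for 50 or more nuclei). Cluster 15 holds 76.2 to 94.6 percent of fibroblast nuclei in WD mice and 6.92 to 15.6 percent in Ctrl, and Col1a1 is higher in it than in the other clusters of the same mouse.

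Col4a1 and Col4a2 assemble the most widespread type IV network, and both rose in the endothelial nuclei of Post-T mice. Col4a1 stood at 153 and 82.2 TMM-scaled CPM in Ctrl, 189 and 128 in Pre-T, and 734 and 523 in Post-T, and Col4a2 at 124 and 83.1 TMM-scaled CPM in Ctrl, 143 and 106 in Pre-T, and 703 and 486 in Post-T. Both Post-T mice lay above all 4 others for each gene, and Ctrl and Pre-T overlapped. Post-T against Ctrl gave 2.42 ± 0.36, adjusted p = 0.00831 for Col4a1 and 2.52 ± 0.30, adjusted p = 0.00408 for Col4a2, and Post-T against Pre-T gave 1.99 ± 0.35, adjusted p = 0.0236 and 2.26 ± 0.30, adjusted p = 0.0119 (edgeR). Against Ctrl both calls held in each of the 6 fits that left out 1 mouse (Col4a1 2.03 to 2.93, Col4a2 2.23 to 2.84), whereas against Pre-T both were lost without Pre-T 1 (2.28 and 2.48, adjusted p = 0.173 and 0.145) or without Pre-T 2 (1.72 and 2.04, adjusted p = 0.264 and 0.183).

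The share of endothelial nuclei with a Col4a1 UMI was 27.0 and 14.8 percent in Ctrl, 35.9 and 27.1 in Pre-T, and 46.6 and 44.8 in Post-T, and after each nucleus was thinned to 500 UMIs, which left out none, it was 8.07 and 4.97 percent in Ctrl, 11.3 and 8.10 in Pre-T, and 24.3 and 17.1 in Post-T. Over all mice the Col4a1 share was 33.1% in endothelial cells (median depth 1754 UMIs) and 5.23% in T cells (median depth 1388 UMIs). The endothelial share was highest in Post-T in both forms. In fibroblasts Col4a1 stood at 611 and 132 TMM-scaled CPM in Ctrl, 339 and 322 in Pre-T, and 394 and 486 in Post-T, with Ctrl 2 the lowest, and passed in no comparison.

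The endothelial class also changed in its clusters. Cluster 3, led by Stab2, made up 74.7 and 80.7 percent in Ctrl, 63.3 and 74.7 in Pre-T, and 3.51 and 0.316 in Post-T of endothelial nuclei. Cluster 5, led by Ldb2, made up 0.11 and 0 percent in Ctrl, 7.01 and 0.21 in Pre-T, and 19.8 and 98.4 in Post-T, and cluster 24, whose leading genes included Dll4, Akap12 and Nes, made up 0 and 0 percent in Ctrl, 0.619 and 0 in Pre-T, and 67.6 and 0.126 in Post-T. Post-T endothelial nuclei thus came mostly from clusters that few nuclei of Ctrl and Pre-T mice entered, cluster 24 in Post-T 1 and cluster 5 in Post-T 2. In cluster 23, led by Vwf and present in every mouse, Col4a1 stood at 144 and 69.5 CPM in Ctrl, 162 and 109 in Pre-T, and 186 and 165 in Post-T and Col4a2 at 107 and 47.3 CPM in Ctrl, 187 and 132 in Pre-T, and 199.9 and 288 in Post-T, where the Post-T values came from 59 and 11 nuclei. In cluster 3 Col4a1 stood at 149.6 and 86.7 CPM in Ctrl, 208 and 166 in Pre-T, and 381 and 158 in Post-T. Col4a2 stood there at 122 and 93.1 CPM in Ctrl, 143 and 127 in Pre-T, and 327 and 237 in Post-T. The Post-T values of cluster 3 came from 26 and 5 nuclei. For Col4a2 both Post-T mice lay above all other mice in cluster 23 and in cluster 3. Within these clusters the Post-T values lay closer to the others than in the whole class, and their difference was not tested there. Without cluster 27, in which 6 macrophage markers were raised, the class gave 2.42 for Col4a1 and 2.51 for Col4a2 in Post-T against Ctrl, and both still passed. Markers of other cells moved as well: erythroid markers summed to 350.2 and 205 CPM in Ctrl, 598 and 1267 in Pre-T, and 3978 and 389.5 in Post-T in endothelial nuclei, fibroblast markers to 248 and 189 CPM in Ctrl, 182 and 266 in Pre-T, and 99.8 and 26.7 in Post-T and macrophage markers to 179 and 226 CPM in Ctrl, 874 and 1115 in Pre-T, and 321 and 44.1 in Post-T. Fibroblast markers were lowest in both Post-T mice. The part of RNA from fibroblasts, erythroid cells, macrophages or hepatocytes, whose markers in these nuclei are given below, was not tested.

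Basement membranes also hold laminins, nidogens and the proteoglycans perlecan and agrin, and 3 of 15 such partners passed in Post-T endothelial cells, all higher, beside 3.28% of all genes higher against Ctrl and 2.11% against Pre-T. Nid2, a nidogen that links laminin to type IV collagen, stood at 19.7 and 12.8 TMM-scaled CPM in Ctrl, 8.92 and 5.01 in Pre-T, and 68.5 and 81.8 in Post-T and gave 2.21 ± 0.32, adjusted p = 0.00795 against Ctrl and 3.48 ± 0.36, adjusted p = 0.00742 against Pre-T (edgeR). Lama5, a laminin chain, stood at 13.7 and 18.2 TMM-scaled CPM in Ctrl, 9.47 and 7.69 in Pre-T, and 56.4 and 40.0 in Post-T and gave 1.58 ± 0.30, adjusted p = 0.0186 against Ctrl and 2.48 ± 0.32, adjusted p = 0.0119 against Pre-T (edgeR). Hspg2, which encodes perlecan, stood at 156 and 155 TMM-scaled CPM in Ctrl, 113 and 107 in Pre-T, and 283 and 285 in Post-T and gave 0.87 ± 0.18, adjusted p = 0.026 against Ctrl and 1.37 ± 0.18, adjusted p = 0.0123 against Pre-T (edgeR). In all 3 genes both Post-T mice lay above all other mice, and none of the 15 partners passed as lower in either Post-T comparison. By direction alone 10 of the 15 were higher and 5 lower against Ctrl, and 11 were higher and 4 lower against Pre-T.

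**Figure D5:**
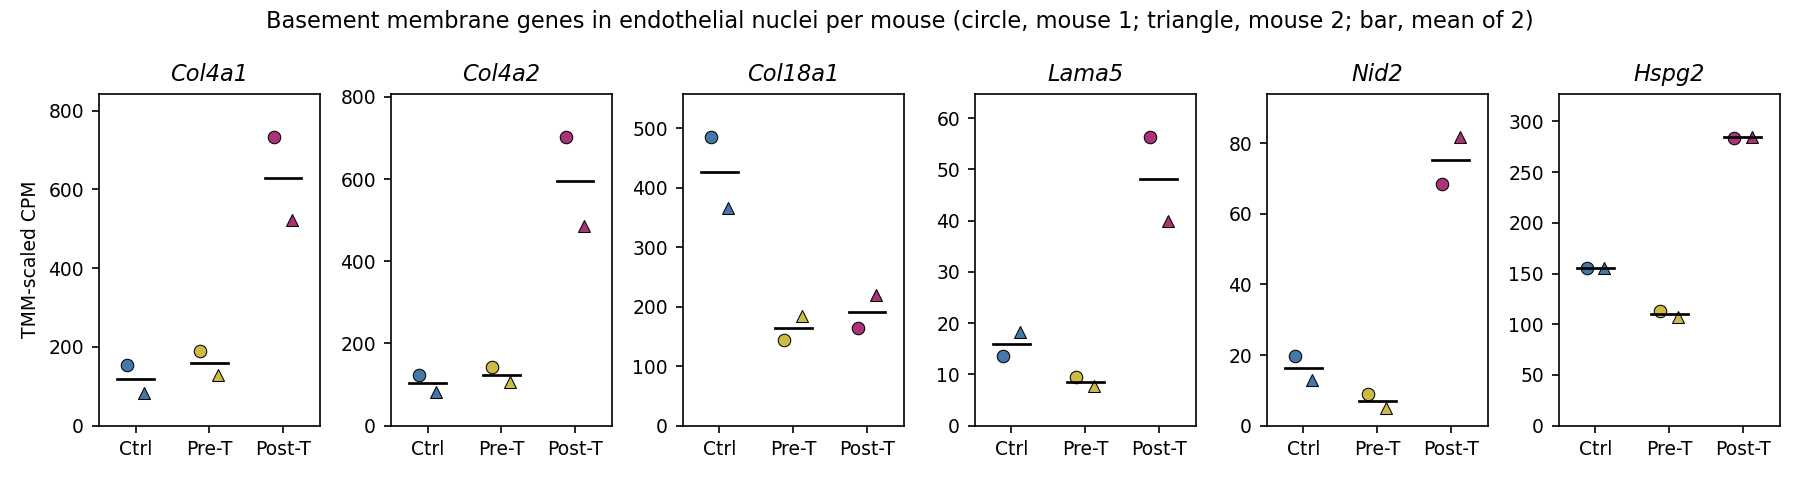
TMM-scaled CPM of Col4a1, Col4a2, Col18a1, Lama5, Nid2 and Hspg2 in endothelial nuclei of each mouse (circle, mouse 1; triangle, mouse 2) with a bar at the mean of 2. For the 5 genes other than Col18a1 both Post-T mice lie above the Ctrl and Pre-T mice, for Col4a1 at 734 and 523 against at most 189. For Col18a1 both Post-T mice lie below both Ctrl mice.

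The chains Col4a3, Col4a4, Col4a5 and Col4a6 form the type IV networks of more specialised basement membranes. In all kept nuclei Col4a4 fell in Post-T against Ctrl, at 13.03 and 15.1 TMM-scaled CPM in Ctrl, 4.43 and 2.46 in Pre-T, and 1.77 and 2.23 in Post-T, with a log2 fold change of -2.81 ± 0.40, adjusted p = 0.0366 (edgeR). Both Post-T mice lay below all others. The call was lost without either Ctrl mouse (-2.91, adjusted p = 0.221, and -2.71, adjusted p = 0.179) or either Pre-T mouse (adjusted p = 0.0595 and 0.0578). The mesothelial nuclei, which held 46.4% of Col4a4 UMIs, were also fewest in Pre-T 2 and both Post-T mice, so the level of Col4a4 and the number of mesothelial nuclei moved together. In hepatocytes Col4a4 stood at 2.45 and 3.32 CPM in Ctrl, 2.33 and 1.51 in Pre-T, and 1.24 and 0.556 in Post-T, with -1.72 ± 0.59, adjusted p = 0.201 (edgeR).

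The X-linked pair Col4a5 and Col4a6 was nearly absent from Post-T 2. In all kept nuclei Col4a5 had 536 and 542 UMIs in Ctrl, 279 and 294 in Pre-T, and 158 and 1 in Post-T, and Col4a6 had 166 and 161 UMIs in Ctrl, 91 and 55 in Pre-T, and 40 and 0 in Post-T. Of their neighbours on the X chromosome, Atg4a had 362 and 363 UMIs in Ctrl, 462 and 411 in Pre-T, and 570 and 272 in Post-T and Nxt2 had 104 and 92 UMIs in Ctrl, 124 and 134 in Pre-T, and 90 and 82 in Post-T. Both neighbours were counted in Post-T 2, but among genes farther away, named after their values were seen, Pak3 had 69 and 90 UMIs in Ctrl, 114 and 85 in Pre-T, and 54 and 2 in Post-T and Chrdl1 had 26 and 41 UMIs in Ctrl, 15 and 8 in Pre-T, and 1 and 0 in Post-T. Low counts in Post-T 2 were thus not limited to the collagen pair. Cholangiocytes, in which Col4a5 stood at 116 to 268.5 CPM in the other 5 mice, numbered 1 in Post-T 2. The hepatocytes of Post-T 2 numbered 3007, and Col4a5 had 0 UMIs in them, which allows up to 0.208 CPM, where hepatocytes of the other mice held 13.5 and 16.1 in Ctrl, 3.96 and 8.49 in Pre-T and 2.86 in Post-T 1. Neither gene passed in all kept nuclei or in hepatocytes. These limits and the intervals of shares cover counting error only.

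Of the types that decorate fibrils, Col14a1, which binds fibrils of type I, stood in fibroblasts at 1143 and 679 TMM-scaled CPM in Ctrl, 1152 and 1307 in Pre-T, and 813 and 623 in Post-T and passed in no comparison of the class. Col12a1, a related fibril-associated chain, rose in Post-T fibroblasts, at 8.12 and 1.98 TMM-scaled CPM in Ctrl, 22.8 and 7.73 in Pre-T, and 92.8 and 15.2 in Post-T, with 3.84 ± 0.75, adjusted p = 0.0187 (edgeR). The higher value was that of Post-T 1, and without that mouse the log2 fold change was 1.67 (adjusted p = 0.868). The call was also lost without Ctrl 1 (5.06, adjusted p = 0.088) or without Ctrl 2 (3.06, adjusted p = 0.0589), and within cluster 15 (1.71, adjusted p = 0.147). Col16a1, also fibril-associated, had 330 UMIs, 73.0% of them in fibroblasts, and passed in no comparison.

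The type VI chains Col6a1, Col6a2 and Col6a3 build beaded filaments around cells, and fibroblasts held 62.7%, 70.7% and 69.9% of their UMIs. Col6a2 rose in Post-T fibroblasts, at 32.0 and 21.1 TMM-scaled CPM in Ctrl, 56.0 and 40.2 in Pre-T, and 114 and 68.4 in Post-T, with 1.90 ± 0.36, adjusted p = 0.0161 (edgeR). Both Post-T mice lay above all others. Without Post-T 1 its log2 fold change was 1.38 (adjusted p = 0.374), without Ctrl 1 2.22 (adjusted p = 0.0916) and without Ctrl 2 1.60 (adjusted p = 0.0991). Within cluster 15 it was 0.67 (adjusted p = 0.642). Its partners gave 1.27 ± 0.33, adjusted p = 0.0672 for Col6a1 and 0.90 ± 0.34, adjusted p = 0.228 for Col6a3 (edgeR), neither past the threshold. Col6a6 fell in all kept nuclei of Post-T against Ctrl (-2.56 ± 0.44, adjusted p = 0.0486, edgeR), at 3.19 and 2.46 TMM-scaled CPM in Ctrl, 1.66 and 2.07 in Pre-T, and 0.491 and 0.459 in Post-T. The Col6a6 call was lost without any 1 of the 6 mice.

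The multiplexins Col15a1 and Col18a1 are collagens of basement membrane zones that carry glycosaminoglycan chains, and the latter releases endostatin. Col15a1 rose in Pre-T fibroblasts, at 17.7 and 2.97 TMM-scaled CPM in Ctrl, 99.98 and 61.3 in Pre-T, and 71.2 and 0 in Post-T, with 3.04 ± 0.71, adjusted p = 0.0379 (edgeR). Both Pre-T mice lay above both Ctrl mice, and the 0 UMIs of Post-T 2 allow up to 21.6 CPM in its 56 nuclei. The call was lost without Ctrl 1 (4.73, adjusted p = 0.0897), without Ctrl 2 (2.21, adjusted p = 0.139) and with DESeq2 (adjusted p = 0.0898).

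Col18a1 was mainly a hepatocyte signal, at 829.7 and 796 CPM in Ctrl, 519 and 519.7 in Pre-T, and 654 and 610.0 in Post-T in hepatocytes, with -1.01 ± 0.31, adjusted p = 0.268 for Pre-T and -0.36 ± 0.31, adjusted p = 0.555 for Post-T against Ctrl (edgeR), neither past the threshold. All 4 WD mice lay below both Ctrl mice. Hepatocyte nuclei of each group sat in different clusters: cluster 0 held 41.3 and 51.0 percent of them in Ctrl, cluster 4 held 56.1 and 24.4 percent in Pre-T and cluster 1 held 75.1 percent in Pre-T 2. Cluster 2 held 97.96 percent in Post-T 1, and clusters 6 and 13 held 56.4 and 43.3 percent in Post-T 2. Every hepatocyte difference between groups is therefore also one between clusters. Col18a1 fell in fibroblasts (-1.48 ± 0.26, adjusted p = 0.01 for Pre-T and -1.26 ± 0.28, adjusted p = 0.0356 for Post-T against Ctrl, edgeR), at 360.0 and 296 TMM-scaled CPM in Ctrl, 103 and 133 in Pre-T, and 133 and 144 in Post-T. It fell likewise in endothelial cells (-1.37 ± 0.25, adjusted p = 0.0388 and -1.15 ± 0.25, adjusted p = 0.0319, edgeR), at 485 and 366 TMM-scaled CPM in Ctrl, 144 and 185 in Pre-T, and 163 and 219.7 in Post-T. In both classes every WD mouse lay below both Ctrl mice.

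T cells, taken not to make Col18a1, held 412 and 308 CPM in Ctrl, 191 and 211 in Pre-T, and 371 and 194 in Post-T of it, and 22.9% of T cell nuclei had a UMI (median depth 1388 UMIs) against 28.4% of fibroblast and 29.1% of endothelial nuclei (median depths 2391 and 1754 UMIs). The Col18a1 level of fibroblasts lay below that of T cells in every mouse. That of endothelial cells lay above it in both Ctrl mice, below it in both Pre-T mice and Post-T 1, and near it in Post-T 2. These comparisons are rough, since the T cell levels are not TMM-scaled and the shares come from unlike depths. The part of free hepatocyte RNA was not tested. The hepatocyte markers summed to 18132 and 12693 CPM in Ctrl, 4948 and 11032 in Pre-T, and 5684 and 16003 in Post-T in fibroblasts and to 21269 and 16701 CPM in Ctrl, 6387 and 14442 in Pre-T, and 8349 and 18282 in Post-T in endothelial cells. The Col18a1 calls in fibroblasts were lost in 2 of 6 (Pre-T, without Ctrl 1 or Pre-T 1) and 4 of 6 (Post-T, without either Ctrl or either Post-T mouse) fits that left out 1 mouse, and those in endothelial cells in 4 of 6 (Pre-T, without any Ctrl or Pre-T mouse) and 5 of 6 (Post-T, in all but that without Post-T 2), with log2 fold changes from -1.63 to -0.93.

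Some collagens of other types differed widely between the hepatocytes of the mice, also within a group. Col8a1, a short chain network collagen of vessel walls, stood at 1.61 and 1.25 CPM in Ctrl, 199.8 and 17.0 in Pre-T, and 59.0 and 0.278 in Post-T in hepatocytes. Pre-T 1 was far above its group partner. With clusters at resolution 0.5, hepatocytes of Pre-T 1 and Post-T 1 stood at 87.3 and 81.8 CPM for Col8a1 and at 54.8 and 39.4 CPM for Col23a1. In that clustering 514 Pre-T 1 nuclei and 402 Post-T 1 nuclei fell in an unnamed cluster. Col23a1, a transmembrane collagen, stood at 1.91 and 2.57 CPM in Ctrl, 104 and 8.11 in Pre-T, and 33.9 and 53.4 in Post-T in hepatocytes, with every WD mouse above both Ctrl mice, and gave 4.29 ± 1.10, adjusted p = 0.215 for Pre-T and 4.32 ± 1.10, adjusted p = 0.115 for Post-T against Ctrl (edgeR). Neither comparison passed in edgeR, and DESeq2 called both (adjusted p = 0.000504 and 0.000171). Col12a1 stood in hepatocytes at 3.47 and 3.57 CPM in Ctrl, 15.1 and 9.43 in Pre-T, and 11.2 and 5.14 in Post-T and Col20a1, a further fibril-associated chain, at 6.34 and 4.45 CPM in Ctrl, 5.34 and 3.11 in Pre-T, and 3.81 and 21.3 in Post-T. Ctrl lay below all WD mice for Col12a1, Post-T 2 was the highest for Col20a1, and neither passed.

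Col13a1, a transmembrane collagen of cell adhesion sites, was mostly endothelial and stood at 58.5 and 76.5 TMM-scaled CPM in Ctrl, 55.2 and 109.6 in Pre-T, and 24.96 and 74.7 in Post-T there, with no comparison past the threshold. Col25a1, a transmembrane collagen known from neurons, rose in Post-T endothelial cells against Ctrl, at 3.42 and 3.72 TMM-scaled CPM in Ctrl, 3.34 and 3.68 in Pre-T, and 8.86 and 33.6 in Post-T, with 2.63 ± 0.62, adjusted p = 0.0403 (edgeR). The level of Post-T 2 led this rise, and without that mouse the log2 fold change was 1.3 (adjusted p = 0.256), while the fits without a Ctrl or a Pre-T mouse gave 2.57 to 2.68 and also did not pass. Col28a1, a minor collagen of peripheral nerve, was called higher in endothelial cells of Post-T against Pre-T (4.81 ± 1.01, adjusted p = 0.0386, edgeR) from 3 and 1 UMIs in Ctrl, 1 and 0 in Pre-T, and 10 and 19 in Post-T. The Col28a1 call was lost without any 1 of the 6 mice (adjusted p 0.0521 to 0.279), DESeq2 gave no adjusted p for it, and with 1 UMI in Pre-T its fitted fold change depends on the prior count.

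Few UMIs stood behind the remaining genes, with 33 for Col17a1, 34 for Col8a2, 38 for Col26a1, 48 for Col22a1, 62 for Col19a1, 85 for Col10a1, 101 for Col9a3, 103 for Col7a1 and 107 for Col6a5. None of these 9 passed in the populations tested. Depth limits what their values can show.

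Genes that make, process, degrade and bind collagen were tested in the same fits. Tested in all kept nuclei and in hepatocytes were 18 genes for modification and folding, 13 for processing and cross-linking, 12 for degradation and its inhibitors and 8 receptors. In both populations 0 of these genes passed in any comparison. Of all genes, 2.22% in all kept nuclei and 1.26% in hepatocytes passed in Post-T against Ctrl. For Pre-T against Ctrl these shares were 0% and 0.00887%, and between the WD groups 0% in both. In Pre-T fibroblasts against Ctrl Serpinh1, the collagen chaperone HSP47, rose (1.61 ± 0.39, adjusted p = 0.0466, edgeR), as did Timp1, an inhibitor of collagen-degrading metalloproteinases (4.90 ± 1.13, adjusted p = 0.0367, edgeR). The collagen receptors Lair1 (1.98 ± 0.38) and Itga2 (1.93 ± 0.43) passed as higher, and Colgalt2, a collagen galactosyltransferase, passed as lower (-5.27 ± 1.03). Macrophage markers in the fibroblast nuclei summed to 142 and 138 CPM in Ctrl, 345 and 723 in Pre-T, and 239 and 72.2 in Post-T. Their part in the level of Lair1, a receptor of leukocytes, was not tested. Serpinh1 stood at 23.9 and 9.89 TMM-scaled CPM in Ctrl, 43.5 and 57.2 in Pre-T, and 13.3 and 22.8 in Post-T and Timp1 at 0.477 and 0 TMM-scaled CPM in Ctrl, 3.804 and 12.4 in Pre-T, and 11.6 and 0 in Post-T. Pre-T lay above Ctrl without overlap in both genes, and the fitted fold changes of Timp1, near 0 in Ctrl, and Colgalt2, near 0 in Pre-T, depend on the prior count of the fit. In Post-T fibroblasts Timp3 (2.42 ± 0.57, adjusted p = 0.0463, edgeR) and Loxl2, a cross-linking enzyme (1.91 ± 0.42, adjusted p = 0.0347, edgeR), rose, and against Pre-T 0 passed. In fibroblasts the lists held 18, 13, 11 and 8 tested genes in the order given above. Of all fibroblast genes 1.72% passed as higher and 2.21% as lower in Pre-T against Ctrl. The shares were 0.978% and 2.13% in Post-T against Ctrl, and 0.0421% passed in either direction against Pre-T.

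In endothelial cells, P4ha1, a prolyl hydroxylase subunit that stabilises the collagen helix, passed as higher in Pre-T (1.68 ± 0.26) and Post-T (1.83 ± 0.26) against Ctrl. In Post-T against Ctrl Plod1, a lysyl hydroxylase, also rose (1.42 ± 0.24, adjusted p = 0.013, edgeR), with the integrin chains Itga2 (2.61 ± 0.59) and Itgb1 (0.87 ± 0.20). Pcolce2, an enhancer of procollagen cleavage, fell in Post-T against Ctrl (-2.67 ± 0.52) and against Pre-T (-3.40 ± 0.50). Of 17 tested genes for modification and folding, 2 passed as higher and 0 as lower in Post-T against Ctrl, of 13 for processing and cross-linking 0 and 1, of 12 for degradation and its inhibitors 0 and 0, and of 8 receptors 2 and 0, beside 3.28% of all genes higher and 5.07% lower. Colgalt2 passed as lower in Pre-T against Ctrl (-2.74 ± 0.47) and as higher in Post-T against Pre-T (2.78 ± 0.47), the comparison in which Plod1 (1.43 ± 0.24) and the metalloproteinase inhibitor Timp3 (1.84 ± 0.39) also passed as higher. Lair1, an inhibitory collagen receptor of leukocytes, passed as higher in Pre-T endothelial cells against Ctrl (2.49 ± 0.38) and as lower in Post-T against Pre-T (-3.07 ± 0.42). The macrophage markers in these nuclei were likewise highest in Pre-T, and their part was not tested.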

How the data were processed

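The submitters' processing notes name Cell Ranger 6.1.1 and the genome build mm10, and the libraries were 3′ 10x Next GEM v3.1 libraries of nuclei from snap-frozen liver. The authors deposited raw UMI counts per gene and barcode, not normalized, with 1 matrix per mouse. Whether intronic reads were counted is not given in the sources used here. Barcodes with more than 200 genes, under 5000 genes and under 5% mitochondrial UMIs were kept, after the limits of the study, which left 39012 of 41882.

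The 44 collagen genes were removed before 2000 variable genes were chosen. Libraries were not integrated. Nuclei were clustered in scanpy 1.11.5 (30 principal components, 15 neighbours, Leiden resolution 1). A cluster took a name where at least 3 markers of that class were raised 2-fold or more over the other nuclei and found in at least 5% of its nuclei, or, in a second step, 1.5-fold. Clusters in which proliferation genes were raised or 2 classes came close stayed unnamed. The naming thresholds were set after seeing the data. Scrublet called 5 of 39012 nuclei doublets, which means that its threshold did not work here, so the planned removal of called doublets was not run and the 5% of nuclei with the highest doublet scores were left out instead, as an alternative added after seeing the data.

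UMI counts were summed per mouse over all kept nuclei and over fibroblasts, endothelial cells and hepatocytes. Genes with at least 10 counts (all kept nuclei) or 3 counts (classes) were tested in edgeR 4.0.16 with TMM scaling, 1 fit for the 3 groups and all 6 mice (3 residual degrees of freedom), quasi-likelihood tests and Benjamini-Hochberg adjustment over all genes tested. DESeq2 1.42.0 was an alternative, since the study used it. Other classes were described by values alone. The fits were tested on simulated counts for Post-T against Ctrl, where the median fitted fold of changed genes lay near the one set. The changed genes were drawn from those above the median level, so the recovery of genes with few UMIs was not tested. At a log2 fold of 2, 75% of changed genes were recovered in fibroblasts, 86.7% in endothelial cells, 40.7% in all kept nuclei and 21.1% in hepatocytes. At a log2 fold of 3 the shares were 88.6%, 96.4%, 88.1% and 75.2% in the same order. The absence of a call therefore does not show the absence of a change in any population, above all in hepatocytes and all kept nuclei. With 200 changed genes, false calls in that comparison numbered 9 in all kept nuclei, 30 in fibroblasts, 51 in endothelial cells and 11 in hepatocytes. In each population they exceeded the 5% of calls that the threshold allows, most in endothelial cells and fibroblasts. In the simulated Pre-T against Ctrl, where no gene was changed, calls numbered 2 in all kept nuclei, 21 in fibroblasts, 8 in endothelial cells and 0 in hepatocytes. Calls near the threshold are therefore less certain than their adjusted p. Shares of nuclei were thinned to 500 UMIs.

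Collagen genes with 30 or more UMIs were described, and members of the other lists were named where they passed the threshold. The collagen genes, the lists and the markers were chosen with earlier results of these data known. Gene models for the type IV pairs were GENCODE, and sequences were RefSeq, GRCm38. Replicate numbers name different mice, and same-numbered mice did not deviate together (correlations -0.192 to 0.109).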

Additional observations from a re-analysis of the deposited data

Results flagged for a closer look

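Of the 6 collagen genes with 100 or more UMIs in the 991 nuclei of no named class, 4 stood there above the level that either Ctrl mouse had over all its kept nuclei, and these nuclei enter no comparison of a class. Col8a1 stood at 239 CPM there, against 12.8 and 21.2 CPM in Ctrl. Col23a1 stood at 93.4 CPM, against 6.24 and 5.23 CPM in Ctrl. Col12a1 stood at 17.1 CPM, against 3.66 and 3.02 CPM, and Col18a1 stood at 778 CPM, against 683 and 630.3 CPM. These Ctrl levels are over nuclei of all classes, and the Col18a1 level lay below that of the hepatocytes of both Ctrl mice given above. Of the unnamed nuclei 825 came from Post-T 1, and 671 of the 680 nuclei of the unnamed cluster led by Ttn, Mdga2 and Apcdd1 were from that mouse, with a median depth 4.05 times that of the library. In Post-T 1 that cluster held Col8a1 at 269 CPM and Col23a1 at 101 CPM. At resolution 1 these values rest mainly on 1 mouse, and they were not tested. With clusters at resolution 0.5, the unnamed cluster led by Ttn, Apcdd1 and Frmpd4 held 514 nuclei of Pre-T 1 and 402 of Post-T 1, and unnamed nuclei held 30.7% and 29.6% of the UMIs of collagens of other types in these mice.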

How the results depend on the processing

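The 22 collagen calls kept their direction under each alternative that gave a value. Of them 20 passed in DESeq2, 21 with RLE size factors, 22 with no minimum count and 14 without the 5% of nuclei with the highest doublet scores. With clusters at resolution 0.5, 16 of 18 passed. Of them 5 passed without Ctrl 1, 8 without Ctrl 2, 10 without each of the Pre-T mice, 14 without Post-T 1 and 16 without Post-T 2, where the lone mouse of a group is assumed to vary like the other groups. The counts of collagen genes called moved by more than 1.5 times as follows, and the cause was not tested. The share of all genes called, in brackets, moved too. DESeq2 called 5 in Pre-T against Ctrl, 10 in Post-T against Ctrl and 7 in Post-T against Pre-T over all kept nuclei (9.72%, 14.8% and 13.1%), and 3, 6 and 1 in hepatocytes (4.47%, 8.59% and 6.12%). With no minimum count, fibroblasts gave 10, 10 and 3 (8.53%, 7.21% and 3.1%), and endothelial cells gave 3 in Pre-T against Ctrl (6.55%) and 8 in Post-T against Pre-T (9.51%). Without the nuclei of highest doublet scores, fibroblasts gave 1 in each comparison with Ctrl (2.42% and 1.52%) and endothelial cells gave 0 in Pre-T against Ctrl (1.81%). At resolution 0.5, endothelial cells gave 0 in Pre-T against Ctrl (0.435%) and hepatocytes gave 1, Col27a1, in Post-T against Ctrl (2.31%). Within the only fibroblast cluster with 50 or more nuclei in every mouse, 9 were called in Pre-T and 5 in Post-T against Ctrl (6.38% and 4.08%), and only 2 of the 7 fibroblast calls passed. Without the endothelial cluster in which 6 macrophage markers were raised, endothelial cells gave 0 in Pre-T against Ctrl (0.349%). These cluster restrictions were chosen after seeing the data. Leaving out 1 mouse at a time gave, in the same order of comparisons, 0 to 6, 0 to 14 and 0 to 13 over all kept nuclei (0 to 6.44%, 0 to 7.68% and 0 to 7.88%), 1 to 5, 0 to 8 and 0 to 1 in fibroblasts (0.305 to 5.47%, 0.538 to 5.36% and 0 to 0.779%), 0 to 2, 2 to 8 and 0 to 6 in endothelial cells (0 to 5.9%, 2.03 to 8.03% and 0 to 7.37%), and 0 to 2 in hepatocytes for Post-T against Ctrl (0.00458 to 2.75%).

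Same-numbered mice share only a number. With the replicate block, 18 of the 22 calls passed, all kept nuclei gave 0 in Post-T against Ctrl (0.00459%), fibroblasts gave 9, 9 and 2 (7.64%, 6.85% and 2.58%), and endothelial cells gave 2 in Pre-T against Ctrl (3.12%). Within the only fibroblast cluster with 50 or more nuclei in every mouse, 3 genes not called in the whole class were called with the opposite sign against Ctrl: Col24a1 at 2.81 in Pre-T and 2.00 in Post-T on the log2 scale, Col4a4 at -2.17 and -1.82, and Col4a6 at -2.13 and -2.26. From all deposited barcodes, the mean fibrillar level of Ctrl was 303 CPM and the mean basement membrane level was 133 CPM in Pre-T and 152 CPM in Post-T. After thinning to 500 UMIs, the mean share of nuclei with a UMI in Ctrl, Pre-T and Post-T was 0.432%, 2.75% and 4.85% for Col1a1 in fibroblasts, 6.52%, 9.72% and 20.7% for Col4a1 in endothelial cells, and 30.6%, 19.4% and 21.9% for Col18a1 in hepatocytes. Each group had 2 mice, and Post-T 2 had 56 fibroblast nuclei, which limits the fibroblast comparisons.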
